A study of Mus musculus with 4 samples.

Results

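Mural cells, the pericytes and smooth muscle cells that wrap the blood vessels, made up 424 of the 21494 nuclei profiled by single-nucleus RNA sequencing in the deep cerebellar nuclei of the mouse. They were picked nucleus by nucleus from counts of known marker genes. A member had a count for at least 3 of 8 mural genes (Rgs5, Pdgfrb, Kcnj8, Abcc9, Vtn, Notch3, Myh11 and Myl9), no more endothelial genes than mural genes out of 7 endothelial ones (Flt1, Cldn5, Pecam1, Ly6c1, Slco1a4, Adgrl4 and Egfl7), and at most 1 of 4 fibroblast genes (Dcn, Lum, Col1a1 and Col3a1). These 19 genes chose the nuclei, so their levels are given as a description and were left out of every test. The same counts defined 651 endothelial nuclei and 121 fibroblast nuclei, and the remaining 20298 nuclei are called all other nuclei.

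The series set Ucn3-Cre mice beside vGluT2-Cre mice, both on C57BL/6J and both crossed with Ai32, whose cells make channelrhodopsin-2 fused to EYFP wherever Cre has acted. Cre is driven by Ucn3 in the transgene Tg[Ucn3-cre]KF31Gsat/Mmucd and by Slc17a6, the gene of the transporter vGluT2, in Tg(Slc17a6-icre)1Oki. Ucn3-Cre replicate 1 was female, 3 months old and extracted on iodixanol, Ucn3-Cre replicate 2 was male, 3 months old and extracted on a sucrose cushion, and on the same cushion vGluT2-Cre replicate 1 was male and 2 months old and vGluT2-Cre replicate 2 female and 2.5 months old. Each line thus had 1 female and 1 male library, while age differed between the lines and iodixanol was used for a single library, so that neither can be told apart from line or library. The number of mice behind a library is not given in the sources used here, and p-values measure only the spread between the 4 libraries. In what follows, values of 4 libraries run from Ucn3-Cre replicates 1 and 2 to vGluT2-Cre replicates 1 and 2.

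Pericytes sit inside the basement membrane of capillaries, and smooth muscle cells encircle arterioles and small veins. Endothelial cells release PDGF-B, which recruits mural cells through the receptor Pdgfrb, while Notch3 and its target genes maintain them. Both kinds of cell set vessel tone through calcium entry and cyclic nucleotides, and pericytes help to build the blood-brain barrier.

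The libraries held 83, 149, 68 and 124 mural nuclei, which were 1.93% (95% exact Clopper-Pearson interval 1.54 to 2.39), 2.26% (1.92 to 2.65), 1.21% (0.937 to 1.53) and 2.49% (2.08 to 2.97) of their nuclei. vGluT2-Cre replicate 1 had the lowest share, and its interval did not reach those of the other 3 libraries. With each nucleus thinned to 1000 counts, its interval (0.8435 to 1.41%) overlapped that of Ucn3-Cre replicate 1 (1.19 to 1.95%). The intervals of these libraries also overlapped with at least 4 mural genes, and with ties of mural and endothelial genes left out. Members with at most 1 endothelial gene made up 0.722, 1.15, 0.939 and 1.45% of nuclei, with Ucn3-Cre replicate 1 lowest. The share was 2.10 ± 0.232% in Ucn3-Cre and 1.85 ± 0.911% in vGluT2-Cre libraries (SD, n = 2 each), a difference of 0.249 percentage points (two-sided exact permutation test, p = 1.0, where 2 libraries against 2 cannot give less than 0.33). It was 2.21 ± 0.395% in female and 1.73 ± 0.747% in male libraries, a difference of 0.48 percentage points (exact permutation p = 0.667). Both differences turned negative when vGluT2-Cre replicate 1 was left out, at -0.395 between lines and -0.0485 between sexes. Set against the vessel lining, there were 65.9, 60.3, 98.6 and 59.3 mural nuclei per 100 endothelial nuclei. The library with the lowest share of mural nuclei, vGluT2-Cre replicate 1, had the highest ratio and also the lowest share of endothelial nuclei, 1.22%, against 2.94 to 4.20% in the other libraries. The ratio averaged 63.1 ± 3.92 in Ucn3-Cre and 78.9 ± 27.7 in vGluT2-Cre libraries (exact permutation p = 1.0), and 62.6 ± 4.62 in female and 79.4 ± 27 in male libraries (p = 0.667).

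**Figure D1:**
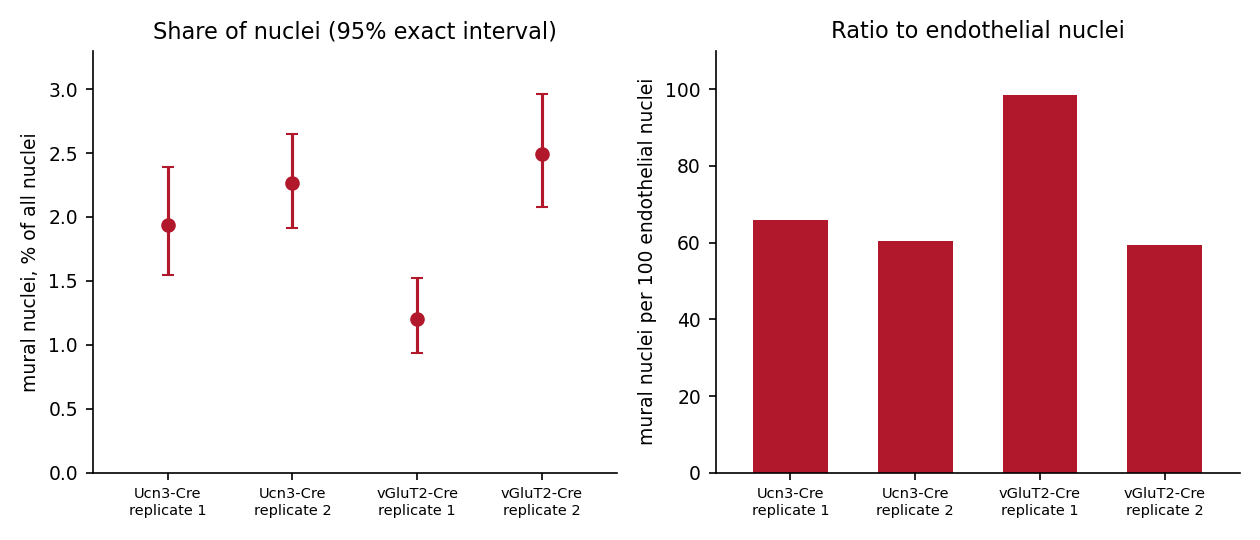
Share of mural nuclei among all nuclei of each library, with 95% exact intervals for counting error (left), and mural nuclei per 100 endothelial nuclei (right). vGluT2-Cre replicate 1 is lowest on the left, at 1.21%, and highest on the right, at 98.6.

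The gating genes describe the members but, having chosen them, cannot check their label. Egfl7 had no count in any nucleus of Ucn3-Cre replicate 1 and of both vGluT2-Cre replicates, and Lum had none in Ucn3-Cre replicate 2. The gate thus worked with fewer genes in those libraries. Vtn, a matrix glycoprotein of pericytes, had a count in 95.2, 94.0, 97.1 and 88.7% of mural nuclei and in 24.6, 19, 18.8 and 20.1% of endothelial nuclei. Pdgfrb, the PDGF-B receptor, had one in 71.1, 91.3, 92.6 and 83.9% of mural nuclei, against 11.1, 9.31, 7.25 and 9.09% of endothelial nuclei. Kcnj8 and Abcc9, which encode the subunits of the ATP-sensitive potassium channel of pericytes, were counted in 50.6 to 61.1% and in 57.8 to 82.4% of mural nuclei. Myh11, the myosin heavy chain of smooth muscle, had a count in 32.5, 20.8, 16.2 and 20.2% of mural nuclei. Rgs5, a G-protein regulator often used as a pericyte marker, had a count in 73.5, 81.9, 70.6 and 83.9% of mural nuclei and also in 71.4, 60.3, 37.7 and 58.9% of endothelial nuclei.

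At the lower edge of the gate, 51 members had exactly 3 mural genes with a count, while 223 had at least 6. Atp13a5, a pericyte gene outside the gate, was at 103 ± 17.4 CPM (counts of the gene per 1000000 counts summed over the nuclei of a class in a library; SD, n = 4) in nuclei with exactly 2 mural genes, 381 ± 151 CPM in members with exactly 3, and 2012 ± 637 CPM in members with at least 6. Slc6a20a, an amino acid transporter, followed the same order at 62.7, 286 and 992.5 CPM. Summed astrocyte markers ran the other way, at 11120 CPM in nuclei with exactly 2 mural genes, 6225 CPM in members with 3 and 766 CPM in members with at least 6. Nuclei at the edge therefore carried fewer pericyte and more astrocyte transcripts than those well inside it. The nuclei were sorted here by their mural genes, so the order of other pericyte genes is a description and no independent evidence. The 516 nuclei with exactly 2 mural genes also included 96 endothelial nuclei. Among all members, 2 had a barcode that also occurs in another library, of 41 such barcodes in the series.

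Endothelial transcripts accompanied many members. Only 144 members (34.0%) had no endothelial gene with a count, 88 had 1, and 161 had at least 3. Library by library, 24.1, 28.2, 63.2 and 31.5% of members had none, so vGluT2-Cre replicate 1 stood apart from the other 3. Flt1, a VEGF receptor of endothelium, was counted in 66.3, 59.1, 30.9 and 46.8% of mural nuclei and in 93.7, 97.6, 94.2 and 90.0% of endothelial nuclei. The 20 endothelial genes outside the gate (Mecom, Ptprb, Cdh5, Tek and others) summed to 9879 ± 2097 CPM in members with at least 3 endothelial genes, near the 12710 ± 457 CPM of endothelial nuclei, and to 748 ± 54.8 CPM in members with at most 1. Members with at least 3 endothelial genes had median totals of 2669, 4335, 3796 and 4707 counts per nucleus, against 1324, 1397, 1350 and 2160 counts in those with at most 1. Mixed nuclei were thus also the deeper ones in every library. A doublet caller placed 46 of the 424 members among the 947 of 21494 nuclei of highest score, a larger share than of all nuclei. The number 947 was set by library size, while the caller's own cutoff marked 42 nuclei. Because of this mixture the comparisons were also made for the 232 members with at most 1 endothelial gene (31, 76, 53 and 72), a restriction chosen after the data were seen, and genes whose call it changed are given with both values. The restriction removes members by their endothelial genes. Lower levels of endothelial genes in this set are therefore a description and no independent evidence. The other classes were not restricted, and fibroblast nuclei had 5324 ± 2382 CPM of the endothelial identity genes. Differences from fibroblast nuclei in this set thus compare a restricted class with an unrestricted one. The sides described further down were not compared in this set, which held 2, 4, 1 and 2 nuclei of the smooth muscle side.

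Other transcripts moved with the endothelial ones. Haemoglobin genes summed to 314 ± 151 CPM in members with at most 1 endothelial gene, 5451 ± 3994 CPM in members with at least 3 and 2569 ± 1372 CPM in endothelial nuclei. Immediate early genes, which respond quickly to stimulation and to tissue handling, summed to 224.7, 1769 and 1537 CPM in the same classes. Mitochondrial transcripts summed to 7656, 14260 and 13960 CPM. The pericyte identity genes outside the gate ran in the other direction, with 6255 ± 1318 CPM in members with at most 1 endothelial gene, 3099 ± 659.3 CPM in those with at least 3, and 444.1 ± 116 CPM in endothelial nuclei. Members with at most 1 endothelial gene thus had the higher sum of pericyte genes and the lower sums of endothelial, immediate early and mitochondrial genes in every library. Their haemoglobin sum was lower in 3 libraries, while in vGluT2-Cre replicate 1 it was 374.5 CPM, against 155.6 CPM in members with at least 3. The part of mixed nuclei in the levels below was not tested other than by leaving them out.

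**Figure D2:**
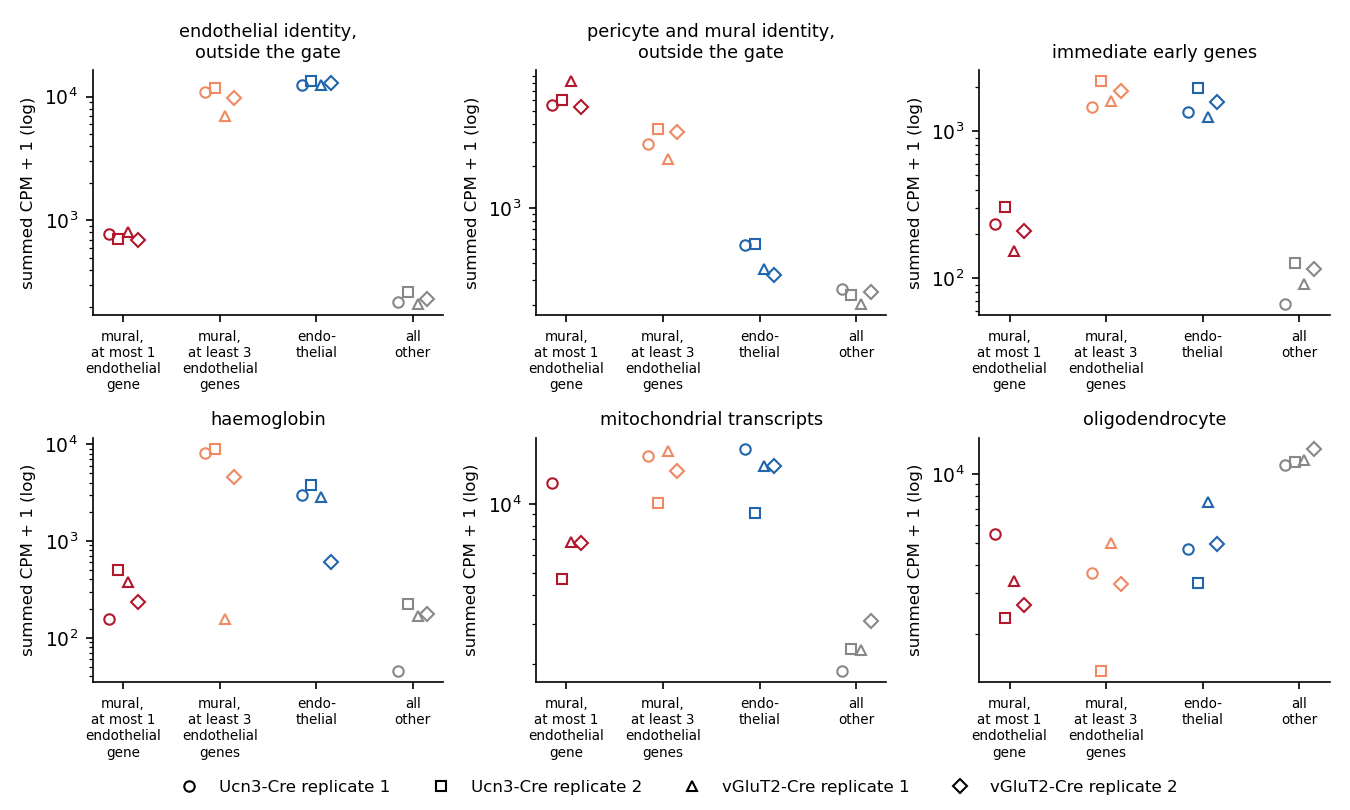
Summed level of 6 gene lists in each library (CPM + 1, log axis) for mural nuclei with at most 1 endothelial gene, mural nuclei with at least 3, endothelial nuclei and all other nuclei. Mural nuclei with at least 3 endothelial genes lie near endothelial nuclei in endothelial identity genes (9879 and 12710 CPM), while those with at most 1 lie far below both (748 CPM).

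Against endothelial nuclei, the comparison that separates the wall cells of a vessel from its lining, 493 of 9462 genes tested were higher in mural nuclei (5.21%) and 288 lower (3.04%) at an adjusted p under 0.05. The fit was edgeR's quasi-likelihood test on counts summed by library and class. Since both classes were picked from the same counts that were then tested, such p-values are too small for genes that track the gating genes. Without vGluT2-Cre replicate 2 the count in both directions was 432 in place of 781 (8.25%). Against all other nuclei, which include the neurons and glia, 2878 genes were higher (30.4%) and 2311 lower (24.4%), and with members of at most 1 endothelial gene 954 were higher (13.2%) and 987 lower (13.7%). The named genes below are the 15 of largest difference from both, of 284 that were higher than in both classes in all 4 libraries, and 1 of the 15 is an unnamed gene model. This rule made a lack of overlap between the classes likely for them. The share of all genes tested without overlap is not given here, which also limits such statements for list genes and sides below.

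Trpc4 (chr3:54156035-54318471, GRCm38, plus strand), a receptor-activated cation channel, was at 111, 169, 273 and 110 CPM in mural nuclei, against 3.14, 4.69, 0 and 1.46 CPM in endothelial nuclei. Every mural value lay above every endothelial one, and the log2 fold change was 5.72 (SE 0.53, adjusted p = 6.8e-08). It was also above fibroblast nuclei, by 2.40 on the log2 scale (adjusted p = 0.0025). Of the 121 fibroblast nuclei, 50 carried at least 3 mural genes, so fibroblast levels here and below include nuclei with mural transcripts.

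Ednra (chr8:77663031-77724464, minus strand), the endothelin receptor through which endothelin-1 constricts vessels, was at 158, 211, 339 and 186 CPM in mural nuclei, against 15.7, 9.39, 0 and 1.46 CPM in endothelial nuclei. The groups did not overlap, and the log2 fold change was 5.03 (SE 0.45, adjusted p = 4.5e-08). It did not pass the test against fibroblast nuclei, where it averaged 101 CPM (log2 fold change 0.98, adjusted p = 0.17), but was higher than in fibroblast nuclei among members with at most 1 endothelial gene (1.62, adjusted p = 0.0014). Pde8b (chr13:95024454-95250336, minus strand), a phosphodiesterase that degrades cyclic AMP, was at 1054, 1198, 2143 and 1156 CPM in mural nuclei, against 78.5, 102, 37.4 and 32.1 CPM in endothelial nuclei. Its log2 fold change was 4.42 (SE 0.34, adjusted p = 7.2e-09), and it was higher than in fibroblast nuclei too (1.91, adjusted p = 0.00034). Gper1 (chr5:139423151-139427800, plus strand), a G protein-coupled oestrogen receptor gene that overlaps a gene model, averaged 159 ± 64.8 CPM in mural and 6.57 ± 2.08 CPM in endothelial nuclei (log2 fold change 4.54).

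Atp13a5 (chr16:29231851-29378732, minus strand), a P5-type ATPase, was at 1224, 1953, 2629 and 1648 CPM in mural nuclei, against 75.3, 158, 43.7 and 30.7 CPM in endothelial nuclei. The groups did not overlap, and the log2 fold change was 4.63 (SE 0.44, adjusted p = 1.1e-07). All other nuclei had 53.1 ± 7.36 CPM and fibroblast nuclei 337 CPM, and the difference from fibroblast nuclei was also past the threshold (2.39, adjusted p = 0.00062). With at most 1 endothelial gene, members had 2911 ± 767 CPM of Atp13a5. Slc6a20a (chr9:123634770-123678885, minus strand, overlapping Ccr9), a transporter of proline and other imino acids, was at 571, 826, 1364 and 892 CPM in mural nuclei, against 34.5, 64.2, 49.9 and 14.6 CPM in endothelial nuclei (log2 fold change 4.57, SE 0.35, adjusted p = 6.8e-09). Fibroblast nuclei had 559 CPM of it, and members with at most 1 endothelial gene were above them (1.23, adjusted p = 0.0025). Slc16a12, of the monocarboxylate transporter family, and Slc38a11, of an amino acid transporter family, averaged 222 ± 75.6 and 468 ± 105 CPM in mural nuclei, against 9.34 ± 6.85 and 23.1 ± 23.5 CPM in endothelial nuclei.

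Among secreted and surface proteins, Il34 (chr8:110741829-110805924, minus strand), a ligand of the CSF1 receptor of microglia, was at 350, 276, 519 and 330 CPM in mural nuclei, against 22.0, 12.5, 6.24 and 19 CPM in endothelial nuclei. Its log2 fold change was 4.44 (SE 0.24, adjusted p = 6.6e-11), and it was at 294 CPM in fibroblast nuclei, where the difference did not pass the test (0.35, adjusted p = 0.47) except with members of at most 1 endothelial gene (0.96, adjusted p = 0.0014). Bmp5, a bone morphogenetic protein, averaged 121 ± 34.8 CPM in mural and 5.87 ± 4.49 CPM in endothelial nuclei. Cd248, the surface glycoprotein endosialin, averaged 117 ± 44.9 CPM in mural and 4.27 ± 2.38 CPM in endothelial nuclei. Pla2r1, a receptor for secreted phospholipase A2, was at 55.3, 67.5, 126 and 62.0 CPM in mural nuclei, against 6.28, 1.56, 0 and 0 CPM in endothelial nuclei, where it rested on 3 counts (ratio 41.75, counting interval 13.88 to 205.9). Adap2os, listed as antisense to Adap2, averaged 180 ± 69.6 CPM in mural and 4.65 ± 4.08 CPM in endothelial nuclei, and whether its counts are its own cannot be told without the strand setting of the counting.

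**Figure D3:**
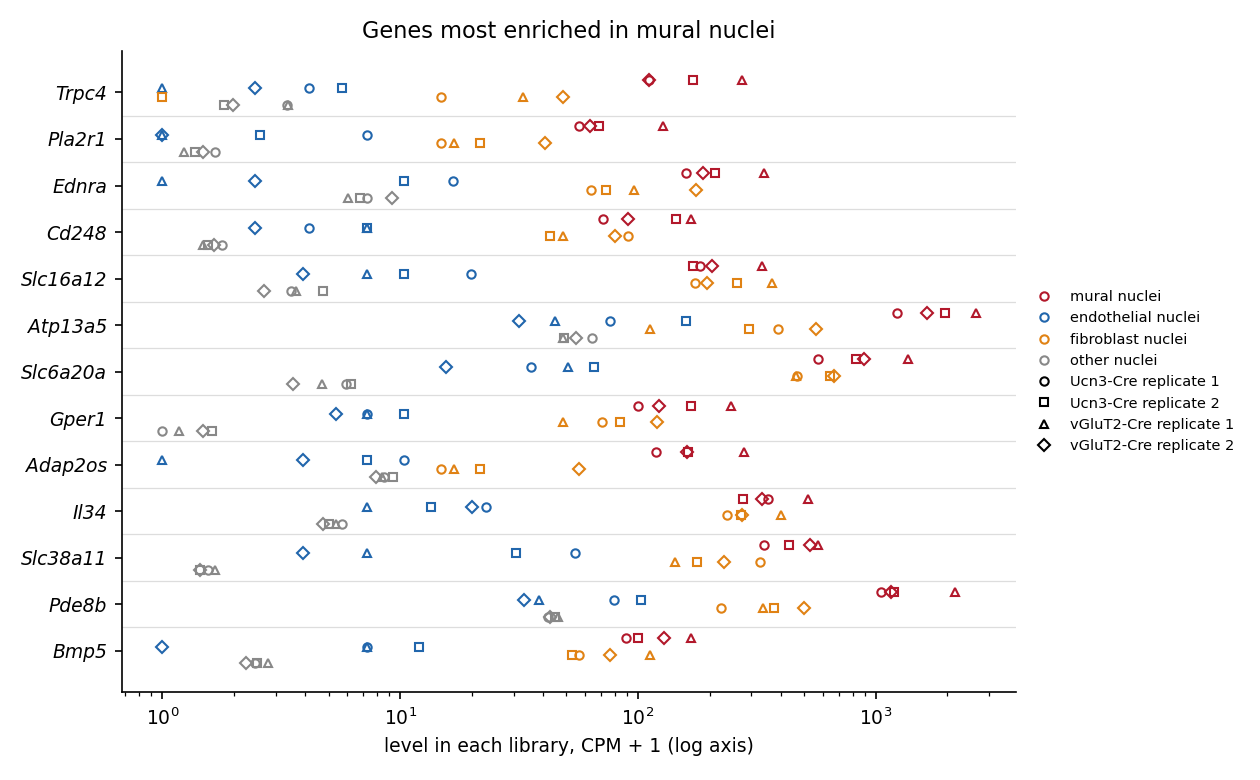
Level of named enriched genes in each library (CPM + 1, log axis) in mural, endothelial, fibroblast and all other nuclei, with 1 symbol per library. Every mural symbol lies right of every endothelial one of its gene, which the rule that chose the genes made likely. Fibroblast symbols reach the mural range for Slc16a12, Il34 and Slc6a20a, among others. Of the 121 fibroblast nuclei, 50 carried at least 3 mural genes.

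Of the 16 identity genes outside the gate, 15 were tested and 14 were higher than in endothelial nuclei, with a median log2 fold change of 3.52 against -0.00182 over all genes tested. The list was chosen for mural cells, so its direction is no independent evidence. Cspg4, the NG2 proteoglycan of pericytes and oligodendrocyte precursors, was at 302, 415, 606 and 346 CPM in mural nuclei, against 25.1, 45.4, 12.5 and 13.1 CPM in endothelial nuclei (log2 fold change 3.98, SE 0.31, adjusted p = 1e-08). Ndufa4l2, a mitochondrial protein induced by hypoxia, averaged 346 ± 21.9 CPM in mural and 65.2 ± 31.1 CPM in endothelial nuclei (2.51). Gucy1b1, a subunit of the nitric oxide receptor guanylate cyclase, averaged 337 ± 110 CPM in mural and 31.3 ± 13.2 CPM in endothelial nuclei (3.42). Tbx18, a T-box factor of mural cells, averaged 34.7 ± 9.32 CPM in mural and 1.96 ± 2.97 CPM in endothelial nuclei, and was lower in mural than in fibroblast nuclei, which had 278 CPM (-2.75, adjusted p = 1.2e-05). Foxf2, a forkhead factor known from brain pericytes, was the 1 tested member not higher, at 54.5 ± 17.3 CPM in mural and 59.7 ± 7.38 CPM in endothelial nuclei (-0.07, adjusted p = 0.95). With at most 1 endothelial gene it was at 12.9 CPM and lower (-2.02, adjusted p = 0.023).

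The contractile apparatus was partly higher, with 10 of 19 tested genes above and 1 below endothelial nuclei (24 on the list, median 0.986). Acta2, smooth muscle actin, was at 545, 85.4, 819 and 110 CPM in mural nuclei and averaged 35.4 ± 44.2 CPM in endothelial nuclei (log2 fold change 3.41, adjusted p = 8e-06). Tagln, an actin-binding protein of smooth muscle whose gene overlaps Pcsk7, was at 269, 29.8, 333 and 50.0 CPM in mural and at 14.1 ± 15.9 CPM in endothelial nuclei (3.64). Replicate 1 of each line was high and replicate 2 low in both genes. Cald1, caldesmon, and Dmd, dystrophin, varied less between libraries, at 1138 ± 98.3 and 869 ± 213 CPM in mural nuclei, against 255 ± 64.8 and 196 ± 51.0 CPM in endothelial nuclei (2.18 and 2.12). Mylk, the kinase that activates myosin light chain, averaged 247 ± 63.6 CPM in mural and 49.1 ± 39.2 CPM in endothelial nuclei (2.32). Tpm1, a tropomyosin, was at 211 ± 49.7 CPM in mural and 147 ± 12.1 CPM in endothelial nuclei and did not pass the test (0.47, adjusted p = 0.26). Sorbs2, an adaptor at actin-anchoring junctions, was the lower member, at 469 ± 160 CPM in mural and 951 ± 116 CPM in endothelial nuclei (-0.98, adjusted p = 0.018). It lost its call without Ucn3-Cre replicate 2, without vGluT2-Cre replicate 1 and without vGluT2-Cre replicate 2. Tagln missed the threshold in members with at most 1 endothelial gene (1.97, adjusted p = 0.09).

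Genes of PDGF, Notch, TGF-beta and angiopoietin signalling went both ways, with 5 of 30 tested higher and 7 lower (median -0.146), and 6 of 27 higher and 13 lower in members with at most 1 endothelial gene. Background shares in that restricted set were 13.1% higher and 17.0% lower of 7219 genes tested. The ligand Pdgfb was lower, at 116 ± 25.2 CPM in mural and 200 ± 68.5 CPM in endothelial nuclei (-0.78, adjusted p = 0.038). It lost that call on leaving out any of 3 libraries, Ucn3-Cre replicates 1 and 2 and vGluT2-Cre replicate 2. In members with at most 1 endothelial gene, a set kept for few endothelial transcripts, it was at 7.07 CPM (-4.37). The endothelial receptors Kdr, for VEGF, and Tek, for angiopoietins, were at 126 ± 43.5 and 236 ± 98.2 CPM in mural nuclei, against 239 ± 37.1 and 493 ± 71.3 CPM in endothelial nuclei. Kdr lost its call without any 1 of Ucn3-Cre replicate 2 and the vGluT2-Cre replicates, and Tek without vGluT2-Cre replicate 2. In members with at most 1 endothelial gene they were at 2.74 and 28.3 CPM (-6.08 and -4.02). Jag1, a Notch ligand, was higher, at 150 ± 75.5 CPM in mural and 60.7 ± 22.6 CPM in endothelial nuclei (1.25). Ptn, the growth factor pleiotrophin, was at 1282, 1633, 1471 and 1460 CPM in mural and at 848 ± 85.8 CPM in endothelial nuclei (0.82), and lost its call without any 1 of the same 3 libraries as Kdr.

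The gene of this list with the largest difference was Hey2 (chr10:30832359-30842801, minus strand), a repressor switched on by Notch receptors through the DNA-binding protein RBPJ. It was at 84.8, 93.4, 133 and 44.0 CPM in mural nuclei, against 6.28, 4.69, 25.0 and 2.92 CPM in endothelial nuclei. The groups did not overlap, and the log2 fold change was 3.69 (SE 0.49, adjusted p = 1e-05), against 4.04 in members with at most 1 endothelial gene. Heyl, another Notch target of the same family, was at 62.7, 77.5, 120 and 88.0 CPM in mural and at 9.31 ± 5.67 CPM in endothelial nuclei (3.52). The promoter of Hey2 from RefSeq on GRCm38.p6 (chr10:30842734-30843033, minus strand), 250 bases before to 50 after its start, is shown because the gene is a Notch target and was higher in nuclei that Notch3 helped to choose. Capitals mark the RBPJ-type motif GTGGGAA on either strand.
Hey2 promoter: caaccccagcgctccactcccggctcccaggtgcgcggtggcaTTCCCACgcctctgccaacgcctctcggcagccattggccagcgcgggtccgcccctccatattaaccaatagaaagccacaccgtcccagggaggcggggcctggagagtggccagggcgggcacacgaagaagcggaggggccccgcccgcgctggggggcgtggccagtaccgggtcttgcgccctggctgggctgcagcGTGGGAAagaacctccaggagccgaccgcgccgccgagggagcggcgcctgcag
The motif occurred on this window at 207 and at 4 bases before the start, and the second match crosses the start. Of 32851 promoters of the same length, 6.38% held the motif on either strand and 0.256% held it more than once. Of the 30 signalling genes, 21 had a promoter in the table, and Tie1 and Kdr, which were not higher in mural nuclei, also held it. A match is a description of letters and not of binding.

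Solute carriers and ATPases went both ways, with 10 of 29 tested higher and 6 lower (31 on the list, median 0.331). Slc30a10, a manganese exporter, was at 118, 181, 160 and 126 CPM in mural and at 6.23 ± 3.88 CPM in endothelial nuclei (log2 fold change 4.62). Slc19a1, the reduced folate carrier, averaged 228 ± 51.4 CPM in mural and 18.2 ± 8.92 CPM in endothelial nuclei (3.71). Among transporters known from the endothelial barrier, Abcb1a, the efflux pump P-glycoprotein, was lower, at 767, 799, 206 and 452 CPM in mural nuclei and at 1164 ± 55.6 CPM in endothelial nuclei (-1.17, adjusted p = 0.013). It did not keep that call without vGluT2-Cre replicate 1, while in members with at most 1 endothelial gene it was at 17.0 CPM (-6.69). Slc2a1, the glucose transporter GLUT1, was at 1183, 1256, 306 and 702 CPM in mural and at 1536 ± 338 CPM in endothelial nuclei and missed the threshold (-0.90, adjusted p = 0.06), and was at 93.4 CPM in members with at most 1 endothelial gene (-4.30).

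Ion channels and calcium handling had 12 of 21 tested genes higher and 1 lower (26 on the list, median 1.05), and 15 of 20 higher and 1 lower in members with at most 1 endothelial gene. Cacna1c, the pore of the L-type calcium channel, whose gene overlaps Dcp1b, was at 744, 789, 1118 and 866 CPM in mural nuclei, against 126, 114, 87.3 and 86.1 CPM in endothelial nuclei (log2 fold change 3.09, SE 0.24, adjusted p = 8.5e-09). Cacnb2, an auxiliary subunit of that channel, averaged 339 ± 96.2 CPM in mural and 61.1 ± 37.8 CPM in endothelial nuclei (2.32). Ano1, a calcium-activated chloride channel, was at 346, 435, 433 and 410 CPM in mural nuclei, against 37.7, 29.7, 12.5 and 13.1 CPM in endothelial nuclei (4.19, SE 0.28). None of these 3 genes overlapped between the classes. Kcnt2, a sodium-activated potassium channel, was higher than in endothelial nuclei (3.11) and lower than in fibroblast nuclei, with 64.3 ± 15.0 CPM in mural and 268 CPM in fibroblast nuclei (-1.72). Piezo1, a mechanosensitive channel, was the lower member, at 73.7, 37.7, 0 and 18.0 CPM in mural and 82.6 CPM in endothelial nuclei (-1.29). Its call was lost without any 1 of Ucn3-Cre replicate 2 and the vGluT2-Cre replicates, and it was listed at 0 in all members with at most 1 endothelial gene.

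Vasoactive receptors and cyclic nucleotide signalling had 13 of 28 tested genes higher and 1 lower (44 on the list, median 0.979). P2ry14, a receptor for UDP-sugars, was at 262, 405, 546 and 394 CPM in mural and at 35.3 ± 18.7 CPM in endothelial nuclei (log2 fold change 3.48). S1pr3, a receptor for sphingosine-1-phosphate, and Tbxa2r, the thromboxane receptor, averaged 127 ± 25.8 and 89.5 ± 39.0 CPM in mural nuclei (3.57 and 3.41). Cysltr2, a leukotriene receptor, was at 114, 147, 0 and 148 CPM in mural nuclei (3.94), and it was at 0 in every nucleus of vGluT2-Cre replicate 1, where a 0 cannot be told from a gene left out of that library's table. Rgs4, which shortens G-protein signals, averaged 285 ± 33.9 CPM in mural and 25.1 ± 6.66 CPM in endothelial nuclei (3.61). The phosphodiesterases Pde3a and Pde5a, which degrade cyclic AMP and cyclic GMP, averaged 251 ± 78.9 and 167 ± 39.8 CPM in mural nuclei (3.53 and 1.87). Prkg1, the kinase activated by cyclic GMP, was at 1677, 1883, 2888 and 1704 CPM in mural and at 920 ± 46.6 CPM in endothelial nuclei (1.14). Ramp2, a partner of the adrenomedullin receptor in endothelium, was the lower member, at 280 ± 162 CPM in mural and 560 ± 32.4 CPM in endothelial nuclei (-1.02). Its call was lost without either vGluT2-Cre replicate, and it was at 20.8 CPM in members with at most 1 endothelial gene (-5.14).

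Basement membrane, matrix and integrin genes had 19 of 42 tested genes higher and 1 lower than in endothelial nuclei (46 on the list, median 0.692), and 1 higher and 14 lower than in fibroblast nuclei (median -0.745). Against fibroblast nuclei 96 of all genes tested were higher (1.01%) and 206 lower (2.18%). Lama2, the laminin chain of muscle and vessel walls, was at 615, 638, 1112 and 830 CPM in mural nuclei, against 126, 73.5, 25.0 and 80.3 CPM in endothelial nuclei (log2 fold change 3.28). Lamc3, another laminin chain, averaged 177 ± 54.9 CPM in mural and 14.6 ± 12.9 CPM in endothelial nuclei (3.45). Col4a1, a main chain of vessel collagen IV, missed the threshold at 368 ± 60.1 CPM in mural and 235 ± 44.1 CPM in endothelial nuclei (0.63, adjusted p = 0.054). Col4a3, a collagen IV chain best known from the kidney filter, was at 99.5, 133, 200 and 104 CPM in mural nuclei, against 18.1 ± 12.1 CPM in endothelial and 20.1 CPM in fibroblast nuclei. It was the 1 gene of the list above both classes with all members (2.64 and 2.48, the second with adjusted p = 0.0013). With members of at most 1 endothelial gene, Col4a4, another collagen IV chain, and the integrin Itga4 were also above both, by 2.36 (adjusted p = 0.0042) and 1.25 (adjusted p = 0.012) over fibroblast nuclei. The fibroblast nuclei were not restricted by endothelial genes. Lama1, a laminin chain of the meninges, averaged 25.0 ± 16.9 CPM in mural and 1460 CPM in fibroblast nuclei (-5.98, adjusted p = 3e-09). Of 9 tested fibroblast identity genes, 8 were lower in mural than in fibroblast nuclei, while 50 of the 121 fibroblast nuclei carried at least 3 mural genes. Both classes were picked by fibroblast genes, so the direction of this list is no independent evidence. Without those 50 nuclei, 701 genes were higher in mural nuclei (7.36%) and 335 lower (3.52%).

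Of 36 transcription factors tested, 9 were higher and 6 lower than in endothelial nuclei (39 on the list, median -0.119), and 11 of 34 were higher and 16 lower in members with at most 1 endothelial gene. Tbx2, a T-box repressor, was at 92.1, 165, 146 and 118 CPM in mural and at 4.96 ± 4.20 CPM in endothelial nuclei (log2 fold change 4.35, SE 0.33). Foxd1, a forkhead factor of the stroma that gives rise to kidney pericytes, averaged 104 ± 44.8 CPM in mural and 6.91 CPM in endothelial nuclei (3.77). Nr2f2, also called COUP-TFII, averaged 325 ± 52.5 CPM in mural and 52.8 CPM in endothelial nuclei (2.54). The cerebellar factors Zic4 and Zic1 were at 134 ± 20.9 and 219 ± 55.3 CPM in mural nuclei, against 23.1 ± 3.00 and 72.5 CPM in endothelial nuclei (2.55 and 1.71). The endothelial factor Erg was at 106 ± 63.6 CPM in mural and 256 ± 34.2 CPM in endothelial nuclei (-1.18), a call lost without either vGluT2-Cre replicate, and at 6.03 CPM in members with at most 1 endothelial gene (-6.10). Epas1, a hypoxia-inducible factor of vessels, was at 891 ± 205 CPM in mural and 899 ± 162 CPM in endothelial nuclei (0.02, adjusted p = 0.99), but at 260 CPM in members with at most 1 endothelial gene, where it was lower (-1.75, adjusted p = 1.2e-05). Ebf1 was at 1883, 2294, 3228 and 1734 CPM in mural and at 1526 ± 239 CPM in endothelial nuclei and did not pass the test (0.60, adjusted p = 0.15), while in members with at most 1 endothelial gene it was at 2641 CPM and higher (0.76, adjusted p = 0.021).

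**Figure D4:**
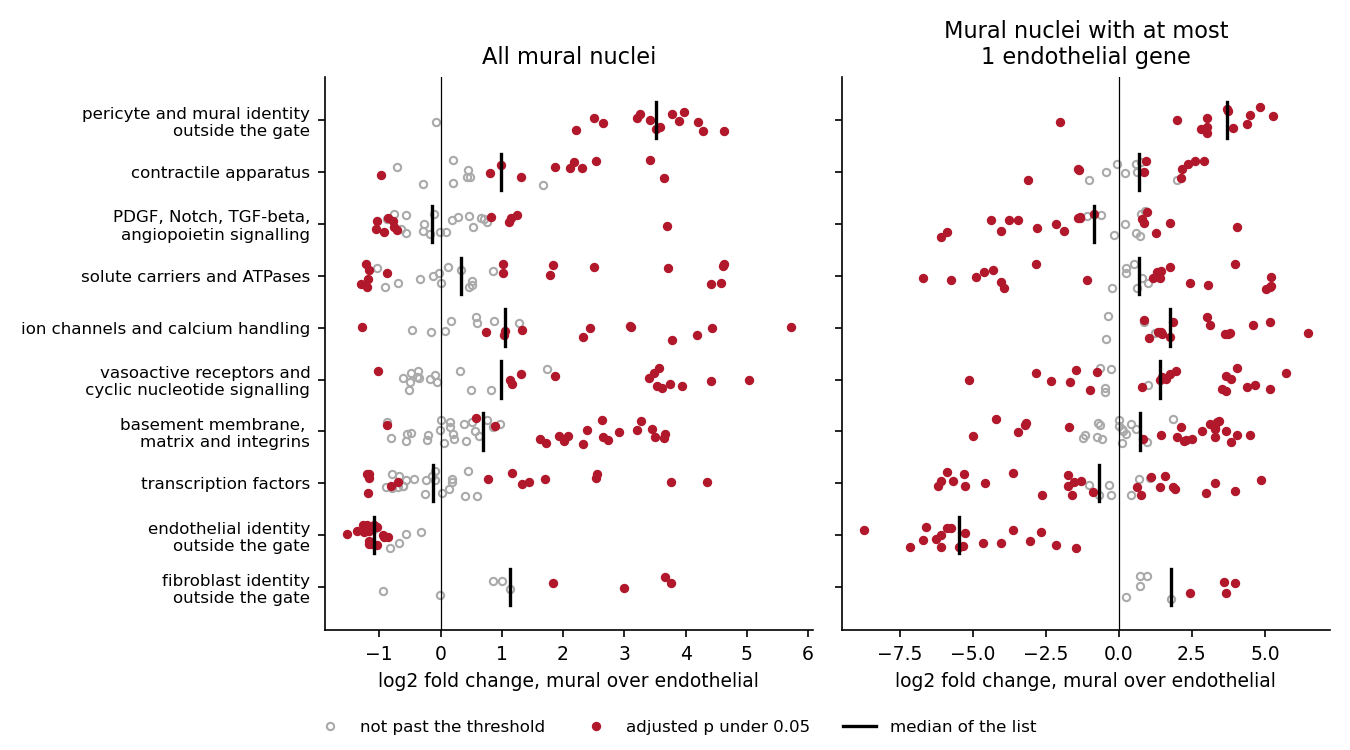
Log2 fold change, mural over endothelial nuclei, of each tested gene of 10 lists for all mural nuclei (left) and for those with at most 1 endothelial gene (right), with filled points past the threshold and a bar at the median of the points drawn. On the right 4 genes listed at 0 in these mural nuclei are not drawn, and all endothelial identity genes lie below 0 on both sides.

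Genes lower in mural than in endothelial nuclei included those of the vessel lining. Of 20 endothelial identity genes outside the gate, 15 were lower (median -1.08), all 20 in members with at most 1 endothelial gene. Those members were kept for having few endothelial genes, so the second count was largely fixed by the choice. By the fixed rule 10 genes were named, 4 of them unnamed gene models. St6galnac3, a sialyltransferase, was at 859, 646, 193 and 554 CPM in mural nuclei, against 1490, 1449, 1878 and 1676 CPM in endothelial nuclei (log2 fold change -1.59, adjusted p = 0.0027). Abcc6, an ABC transporter, was at 29.5, 23.8, 20.0 and 26.0 CPM in mural and at 97.6 ± 18.5 CPM in endothelial nuclei (-1.85, SE 0.25, adjusted p = 1.8e-05), and was listed at 0 in all 4 libraries in members with at most 1 endothelial gene. Rundc3b was at 313, 248, 66.6 and 136 CPM in mural and at 583 ± 86.4 CPM in endothelial nuclei (-1.53), and at 10.3 CPM in members with at most 1 endothelial gene. vGluT2-Cre replicate 1, whose members had the fewest endothelial genes, was lowest in all 3 of these genes. Nxpe2 averaged 40.7 ± 25.1 CPM in mural and 139 ± 11.6 CPM in endothelial nuclei (-1.66). Flrt2, an adhesion protein, averaged 65.9 ± 13.1 CPM in mural and 219 ± 100 CPM in endothelial nuclei (-1.53). Sorbs2os, listed as antisense to Sorbs2, averaged 28.2 CPM in mural and 93.3 CPM in endothelial nuclei (-1.59), and its counts cannot be told from those of Sorbs2 without the strand setting.

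Members were then divided by 5 smooth muscle genes (Myh11, Acta2, Tagln, Cnn1 and Lmod1) and 5 pericyte genes (Kcnj8, Abcc9, Vtn, Atp13a5 and Higd1b), which were left out of the test of the sides. The smooth muscle side, with at least 2 smooth muscle genes and more of them than pericyte genes, held 11, 9, 3 and 8 nuclei, and the pericyte side 67, 132, 64 and 108. Cnn1 had no count in any nucleus of both Ucn3-Cre replicates and vGluT2-Cre replicate 2. Lmod1 had none in Ucn3-Cre replicate 2 and vGluT2-Cre replicate 1, so the rule had fewer smooth muscle genes to work with in these libraries. vGluT2-Cre replicate 1, with under 5 nuclei on the smooth muscle side, was left out, and the sums rest on 76225 counts for the smooth muscle side and 1146871 for the pericyte side. Of 3306 genes tested, 51 were higher on the smooth muscle side (1.54%) and 90 lower (2.72%). The total of 141 (4.26%) fell to 63, 30 and 94 on leaving out the Ucn3-Cre replicates 1 and 2 and vGluT2-Cre replicate 2 in turn. Values below are for Ucn3-Cre replicates 1 and 2 and vGluT2-Cre replicate 2.

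Genes higher on the smooth muscle side included secreted, adhesion and signalling proteins. Ntn4, a netrin of basement membranes, was at 705, 893 and 537 CPM on the smooth muscle side, against 39.6, 48.8 and 44.6 CPM on the pericyte side (log2 fold change 3.80, SE 0.44, adjusted p = 3.5e-06). Ltbp1, which stores latent TGF-beta in the matrix, was at 153, 510 and 322 CPM on the smooth muscle side, against 26.4, 12.7 and 26.8 CPM on the pericyte side (3.67, SE 0.57, adjusted p = 0.00011). Neither gene overlapped between the sides. Olfr558, an odorant receptor gene, was at 153, 319 and 251 CPM on the smooth muscle side, against 22.0, 8.48 and 8.93 CPM on the pericyte side (4.06, adjusted p = 9.2e-05). Nrip2, a nuclear receptor interactor, was at 307, 191 and 107 CPM on the smooth muscle side, against 13.2, 12.7 and 6.70 CPM on the pericyte side (3.97, adjusted p = 9.4e-05). These levels rest on few counts, with 17 on the smooth muscle side and 13 on the pericyte side for Olfr558, and 16 and 12 for Nrip2. Map3k7cl rested on 13 counts on the smooth muscle side and 4 on the pericyte side (5.24). The other 4 of these genes passed the threshold also with any 1 library left out, while Map3k7cl then fell under the filter on low counts and was not tested.

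Kcnab1, an auxiliary subunit of voltage-gated potassium channels, was at 307, 1212 and 358 CPM on the smooth muscle side, against 70.4, 19.1 and 31.3 CPM on the pericyte side (3.72, adjusted p = 0.00012). Without Ucn3-Cre replicate 2 its adjusted p was 0.0676. Cdh6, a cadherin, was at 184, 446 and 143 CPM on the smooth muscle side, against 13.2, 10.6 and 31.3 CPM on the pericyte side (3.47, adjusted p = 0.00054), and without the same library its adjusted p was 0.0624. Grip2 was at 153, 128 and 107 CPM on the smooth muscle side, against 13.2, 2.12 and 13.4 CPM on the pericyte side (3.47, adjusted p = 0.0013). Its values rest on only 10 counts on the smooth muscle side and 10 on the pericyte side over these libraries. Contractile genes outside the side rule had 3 of 12 tested genes higher and none lower (median 0.912, against -0.119 over all genes). These were Mylk at 1012, 957 and 322 CPM on the smooth muscle side, against 198, 197 and 167 CPM on the pericyte side (1.77, adjusted p = 0.0075), Tpm1 (2.00, adjusted p = 0.0013) and the actin crosslinker Flna at 521, 638 and 394 CPM, against 123, 72.1 and 82.6 CPM on the pericyte side (adjusted p = 0.0012). Each of them lost its call without Ucn3-Cre replicate 2, and Mylk and Tpm1 also without Ucn3-Cre replicate 1. Slc8a1, the sodium-calcium exchanger, Cacnb2 and Pde3a were higher by 2.82, 2.08 and 2.30 on the log2 scale, and also lost their calls without Ucn3-Cre replicate 2. Their lists went both ways. Of 24 tested solute carriers and ATPases, 3 were higher and 7 lower. Channel genes had 1 higher and 1 lower of 11, and vasoactive and cyclic nucleotide genes 1 higher and 2 lower of 20. Over all genes tested, 1.54% were higher and 2.72% lower.

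Of the genes most enriched in mural nuclei, Pde8b and Slc6a20a were lower on the smooth muscle side. Pde8b was at 184, 510 and 322 CPM on the smooth muscle side, against 1210, 1242 and 1266 CPM on the pericyte side (-2.13, SE 0.44, adjusted p = 0.0028). Slc6a20a was at 61.3, 510 and 107 CPM on the smooth muscle side, against 647, 857 and 987 CPM on the pericyte side (-2.36, adjusted p = 0.0047). The sides did not overlap in either gene, but both lost their calls without Ucn3-Cre replicate 1, and Slc6a20a also without vGluT2-Cre replicate 2. Magi3, Cbfa2t3, Erg, Igf2r and Slc16a9 were listed at 0 on the smooth muscle side and were at least 4.83, 3.79, 3.68, 2.75 and 2.26-fold lower there, taking 3 counts over the group as the floor. Magi3 lost its call without Ucn3-Cre replicate 1 (adjusted p = 0.0636) and without Ucn3-Cre replicate 2 (0.0869), and the other 4 lost theirs without any of the 3 libraries. Sema3c, a guidance factor, had 1 count on the smooth muscle side and 529 on the pericyte side (ratio 35.2, counting interval 6.28 to 1391). Both Erg and Sema3c are on the list of endothelial identity genes. Of that list, 7 of 19 tested genes were lower on the smooth muscle side, against 2.72% of all genes tested.

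Several strongly mural genes did not separate the sides by the test. Ednra was at 153, 255 and 179 CPM on the smooth muscle side, against 163, 210 and 196 CPM on the pericyte side (-0.14, adjusted p = 0.95). Cald1 (-0.17, adjusted p = 0.90), Cacna1c (0.38, adjusted p = 0.73), Prkg1 (0.05, adjusted p = 0.98) and Hey2 (0.27, adjusted p = 0.91) likewise missed the threshold, which does not show that the sides had like levels. Transcripts of other cell types differed between the sides as well. Endothelial identity genes summed to 2933 ± 1522 CPM on the smooth muscle side and 7654 ± 2034 CPM on the pericyte side, and haemoglobin genes to 496 and 5362 CPM. Mitochondrial transcripts summed to 26060 ± 3825 CPM on the smooth muscle side and 10310 ± 3312 CPM on the pericyte side, while oligodendrocyte genes summed to 4200, 4592 and 9382 CPM on the smooth muscle side and 4269, 1560 and 2600 CPM on the pericyte side and overlapped. Of the oligodendrocyte genes, St18 was higher on the smooth muscle side (2.61, adjusted p = 0.00053, lost without Ucn3-Cre replicate 2). The part of these transcripts in the differences between the sides was not tested.

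**Figure D5:**
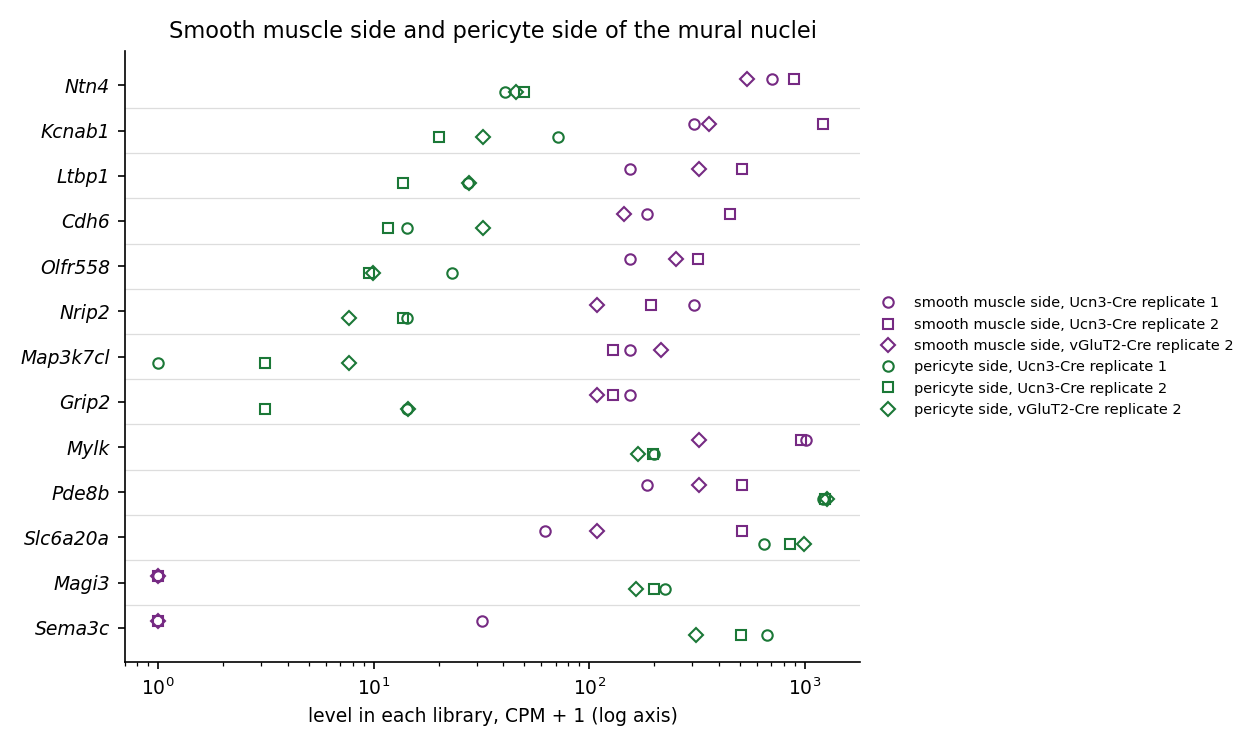
Level of named genes in each library (CPM + 1, log axis) on the smooth muscle side and on the pericyte side of the mural nuclei, for the 3 libraries with at least 5 nuclei on each side. Ntn4 lies between 537 and 893 CPM on the smooth muscle side and between 39.6 and 48.8 CPM on the pericyte side, while Magi3 lies at 0 on the smooth muscle side. Sema3c is on the list of endothelial identity genes.

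Between the lines, no gene of 8082 passed the threshold in mural nuclei (0.0%) by edgeR, where 539 had an unadjusted p under 0.05, and DESeq2 called 0 as well. With 1 library left out, edgeR called 13 (without Ucn3-Cre replicate 1), 59 (Ucn3-Cre replicate 2), 0 (vGluT2-Cre replicate 1) and 144 genes (vGluT2-Cre replicate 2), where 1 line is then a single library. No list had a called member. The endothelial identity genes had a median log2 fold change of 0.885, Ucn3-Cre over vGluT2-Cre, and the haemoglobin genes of 2.30, against -0.0174 over all genes. In the libraries the endothelial sum was 8381 and 8032 CPM in Ucn3-Cre mural nuclei, against 3221 and 4950 CPM in vGluT2-Cre mural nuclei, and the haemoglobin sum 6011 and 6109 CPM against 279.5 and 2308 CPM. The pericyte identity sum was 3450 and 4514 CPM in Ucn3-Cre, against 6050 and 4146 CPM in vGluT2-Cre mural nuclei. The lines did not overlap in the first and second of these sums and overlapped in the third. With so few libraries per line, such a separation often arises by chance. The share of all sums or genes that separate in this way is not given here. In members with at most 1 endothelial gene the lines overlapped also in the first and second sums. Endothelial sums were 780.2 and 711.5 CPM in Ucn3-Cre, against 807.5 and 692.4 CPM in vGluT2-Cre. Haemoglobin sums were 156 and 495.5 CPM in Ucn3-Cre, against 374.5 and 230.8 CPM in vGluT2-Cre. No gene was called between the lines in that set either. The difference of mural from endothelial nuclei did not differ between the lines for any gene (0 of 9261, 0.0%, with 625 at an unadjusted p under 0.05, and 0 by DESeq2), while 0, 15, 55 and 127 genes were called without each of the libraries in the same order.

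Between the sexes, 1 gene of 8082 passed the threshold (0.0124%). This was Xist (chrX:103460366-103483254, minus strand, overlapping Tsix), the RNA that silences an X chromosome in female cells. It was at 1784 and 2038 CPM in female mural nuclei and stood at 0 in male ones (adjusted p = 0.0103), in the direction of the sex labels. Leaving out each library in turn gave 5, 2, 2 and 14 called genes. No member of the mural lists was called, and the median log2 fold change, female over male, was -0.215 for identity, -0.0411 for contractile and -0.162 for channel genes, against 0.0242 over all genes. Mitochondrial transcripts took 1.42% of the counts of the median mural nucleus in the iodixanol library and 0.588 to 0.730% in the 3 sucrose libraries. In all other nuclei the order was the opposite, at 0.149% in the iodixanol library and 0.240 to 0.285% in the sucrose libraries. Endothelial nuclei had 1.39, 0.603, 1.15 and 1.39% in the 4 libraries, so the iodixanol library did not stand apart there. Members with at most 1 endothelial gene had 0.775, 0.4525, 0.522 and 0.563%. The part of extraction was not tested.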

How the data were processed

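Per the labels' protocols, single nuclei came from micro-dissected deep cerebellar nuclei and went into 10x Genomics libraries, with no sorting recorded. The authors used Cell Ranger 3.1.0, Seurat 3.2 and the mm10 build, per the submitters' processing notes. The deposited values are estimated counts per nucleus for 15632 gene symbols, of which 97.2 to 98.8% lie within 0.5 below a whole number in each library. The step that made them is not given in the sources used here, nor is the strand setting of the counting. Of the 15632 genes, 4186 were at 0 in every nucleus of at least 1 library.

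The values were rounded to whole numbers, and classes were set per nucleus by counts of gating genes, so fragments of 2 cells in 1 droplet can carry markers of both. Scrublet (scanpy 1.11.5) was used only in an alternative, which removed the highest-scoring 0.8% per 1000 nuclei. Counts were summed by library and class, 1424939 in mural, 1802971 in endothelial, 555981 in fibroblast and 60041092 in all other nuclei. The median mural nucleus had 1822, 1685, 1430 and 2356 counts. Sums were tested with edgeR 4.0.16 (R 4.3.3; filterByExpr, TMM, quasi-likelihood test) with the library as a term across classes, and Benjamini-Hochberg adjusted p-values over the whole table, called at 0.05. DESeq2 1.42.0, other size factors, filters and gates, and each library left out were alternatives. Fold changes of genes at 0 in a class use a floor of 3 counts. CPM are not corrected for gene length, so levels are compared between classes and not between genes. Shares were compared with exact permutation tests (SciPy 1.17.1), and intervals and floors cover counting error only. Positions come from GENCODE vM21 on GRCm38, matched by symbol for 15470 of 15632 genes.

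The genes named were the 15 with the largest value of the smaller log2 fold change (over endothelial and over all other nuclei) that were higher in all 4 libraries with at least 50 CPM, the 10 lowest against endothelial nuclei, the 8 of largest change in each direction between sides, lines and sexes, and members of 18 gene lists (355 genes, 12 not in the tables). Some of these genes are not reported here. The members and lists were chosen with earlier results of these data known. Replicate numbers did not pair the libraries of the lines: deviations from the line mean of same-numbered libraries had a correlation of 0.0397 over 8082 genes.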

Additional observations from a re-analysis of the deposited data

Results flagged for a closer look

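In 2 of 27 values examined across the 4 libraries, 1 library stood far from the others, where chance alone would mark about 1 in 20. The ratio of mural to endothelial nuclei was 65.9, 60.3, 98.6 and 59.3 per 100, and the gap of vGluT2-Cre replicate 1 to its nearest neighbour was 0.833 of the whole range. Pde8b was at 1054, 1198, 2143 and 1156 CPM in mural nuclei, with the same library high and a gap of 0.868 of the range. In that library 63.2% of mural nuclei had no endothelial gene with a count, against 24.1 to 31.5% in the other 3. Among members with at most 1 endothelial gene, Pde8b was at 2516, 1906, 3148 and 1773 CPM. The part of endothelial transcripts in these gaps was not tested.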

How the results depend on the processing

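Of 129 list genes that differed from endothelial nuclei, 71 were called in every alternative and 0 changed sign. The same counts were 53, 29 and 2 against fibroblast nuclei, 263, 159 and 24 against all other nuclei, and 43, 4 and 0 between the sides, and none was called with the sign turned. With members of at most 1 endothelial gene, a choice made after seeing the data, 2178 genes differed from endothelial nuclei (675 shared with the 781), 1941 from all other nuclei and 1497 from fibroblast nuclei, and the difference in percent of mural nuclei between lines was -0.2555. Leaving out each library gave differences of -0.395 to 0.893 between lines and -0.0485 to 1.008 between sexes, the negative ones on leaving out vGluT2-Cre replicate 1, and 432 to 705 calls against endothelial nuclei, 0 to 144 between lines, 0 to 127 for the difference by line, 2 to 14 between sexes and 30 to 141 between sides. Fibroblast nuclei with under 3 mural genes gave 1036 calls. With no filter on low counts there were 63 calls between lines, 34 for the difference by line, 30 between sexes and 213 between sides. The difference by line had 4 calls without the highest Scrublet scores and 2 with values rounded up. The sexes had 3 calls by DESeq2, 3 without ties, 3 with values rounded up and 0 among genes counted in every library, which leaves out Xist. The sides had 69 calls by DESeq2 and 89 with no replicate block. With replicate number as a block the sexes had 3 calls and the lines 0, though the numbers do not pair the libraries. With other size factors, 2564 genes were higher (27.1%) and 2755 lower (29.1%) than in all other nuclei. The causes of these shifts were not tested. Depth limits the sides most, since the smooth muscle side rests on 11, 9 and 8 nuclei. There 3 counts correspond to 39.4 CPM over the 3 libraries pooled. In a single library, with 32620, 15678 or 27927 counts on that side, 3 counts correspond to a higher CPM.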

Other observations

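Against all other nuclei 30.4% of genes tested were higher in mural nuclei. Identity genes outside the gate were higher in 15 of 15 tested (median log2 fold change 5.82), contractile genes in 17 of 19 (2.03), matrix and integrin genes in 35 of 42 (2.34), transcription factors in 27 of 36 (2.81) and signalling genes in 21 of 30 (2.35), against a median of 0.0506 over all genes. Also higher were 20 of 20 endothelial identity, 4 of 4 haemoglobin, 12 of 12 mitochondrial and 8 of 8 immediate early genes. In members with at most 1 endothelial gene, 13.2% of genes tested were higher than in all other nuclei, with 13 of 13 identity genes, 3 of 20 endothelial identity, 0 of 4 haemoglobin, 9 of 12 mitochondrial and 2 of 6 immediate early genes among them.

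Astrocyte genes had a median log2 fold change of 1.11 between mural nuclei of female and male libraries, against 0.0242 over all genes. It was positive in 9 of 9 tested genes, none of which passed the test, and the share of all genes with a positive value is not given here. Members with exactly 3 mural genes, which carried more astrocyte transcripts, numbered 8, 11, 7 and 25 in the 4 libraries, and their part was not tested. Summed oligodendrocyte genes were at 3336 CPM in mural nuclei, against 5120 CPM in endothelial and 11650 CPM in all other nuclei.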
